A study of Mus musculus with 3 samples.

Results

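The nuclear genes of respiratory complex I were followed in mouse cortical neurons. The members are all protein-coding genes whose symbol begins with Nduf and that had a value in the deposited transcript table. This gave 46 genes of 18130 coding genes with a value. They comprise 36 structural subunits (7 core and 29 accessory), 8 Ndufaf assembly factors, and the genes Ndufa4 and Ndufa4l2, which are treated apart. All 3 libraries came from wild-type (WT) neurons given the control treatment (CON), as total RNA, and they form 1 group, named replicates 1 to 3. The series concerns DNA supercoiling and topoisomerases in neurons. A single group allows no contrast of conditions, and genes were therefore compared with each other inside each library.

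Complex I, the NADH:ubiquinone oxidoreductase, takes electrons from NADH in the mitochondrial matrix, passes them through flavin and iron-sulfur clusters to ubiquinone, and uses the energy to pump protons across the inner membrane. Its N module oxidises NADH and its Q module reduces ubiquinone, both in the matrix arm, and the P module in the membrane arm moves the protons. The membrane core is encoded by mitochondrial mt-Nd genes, while the core of the matrix arm and all accessory subunits come from the nucleus. Assembly factors build the enzyme and are not part of the finished complex. Neurons draw most of their ATP from oxidative phosphorylation, and inherited complex I defects often affect the brain.

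Levels are given in TPM (transcripts per 1000000), which scale reads by transcript length and library total. The value of a gene is that of the coding transcript whose mean TPM times exonic length is highest, that is, the one with the most reads. The coding transcripts used held 33514284, 29618759 and 29111857 reads in replicates 1, 2 and 3. Errors are SD over the 3 libraries. Whether the libraries stem from separate cultures is not in the labels, and the spread may be technical. In bulk RNA, fewer cells of a type and less RNA per cell cannot be told apart. Neuronal markers were present, with Stmn2 at 687.2 ± 55.6 TPM and Snap25 at 373.5 ± 27.24 TPM (n = 3). All 5 astrocyte markers were expressed as well, with Slc1a3 the highest at 184.4 ± 19.14 TPM. Of the 5 oligodendrocyte lineage markers, 4 were expressed, with Olig1 the highest at 34.4 ± 2.906 TPM. The part of glial RNA in the levels below was not tested. Of the 4 microglial markers, Tmem119 was listed at 0 in all 3 libraries and Aif1 was the highest at 1.026 ± 0.4252 TPM. Of the 3 endothelial markers, Cldn5 was listed at 0 in all 3 libraries and Kdr was the highest at 0.374 ± 0.1847 TPM.

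Of the 46 Nduf genes, 45 averaged 1 TPM or more, the level called expressed here, against 61.8% of all coding genes. The exception was Ndufa4l2. Of the 36 subunits, 32 lay above the 80th percentile of coding genes, and 22 fell between 30 and 80 TPM. The median subunit stood at 44.31 ± 4.119 TPM, against 2.897 ± 0.01372 TPM for all coding genes (n = 3). The subunits nevertheless spanned 42.1-fold, between Ndufb9 at 128.5 ± 8.622 TPM and Ndufab1 at 3.053 ± 0.5151 TPM. Both end values carry limits described further on, and the width of this range is uncertain for that reason.

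**Figure D1:**
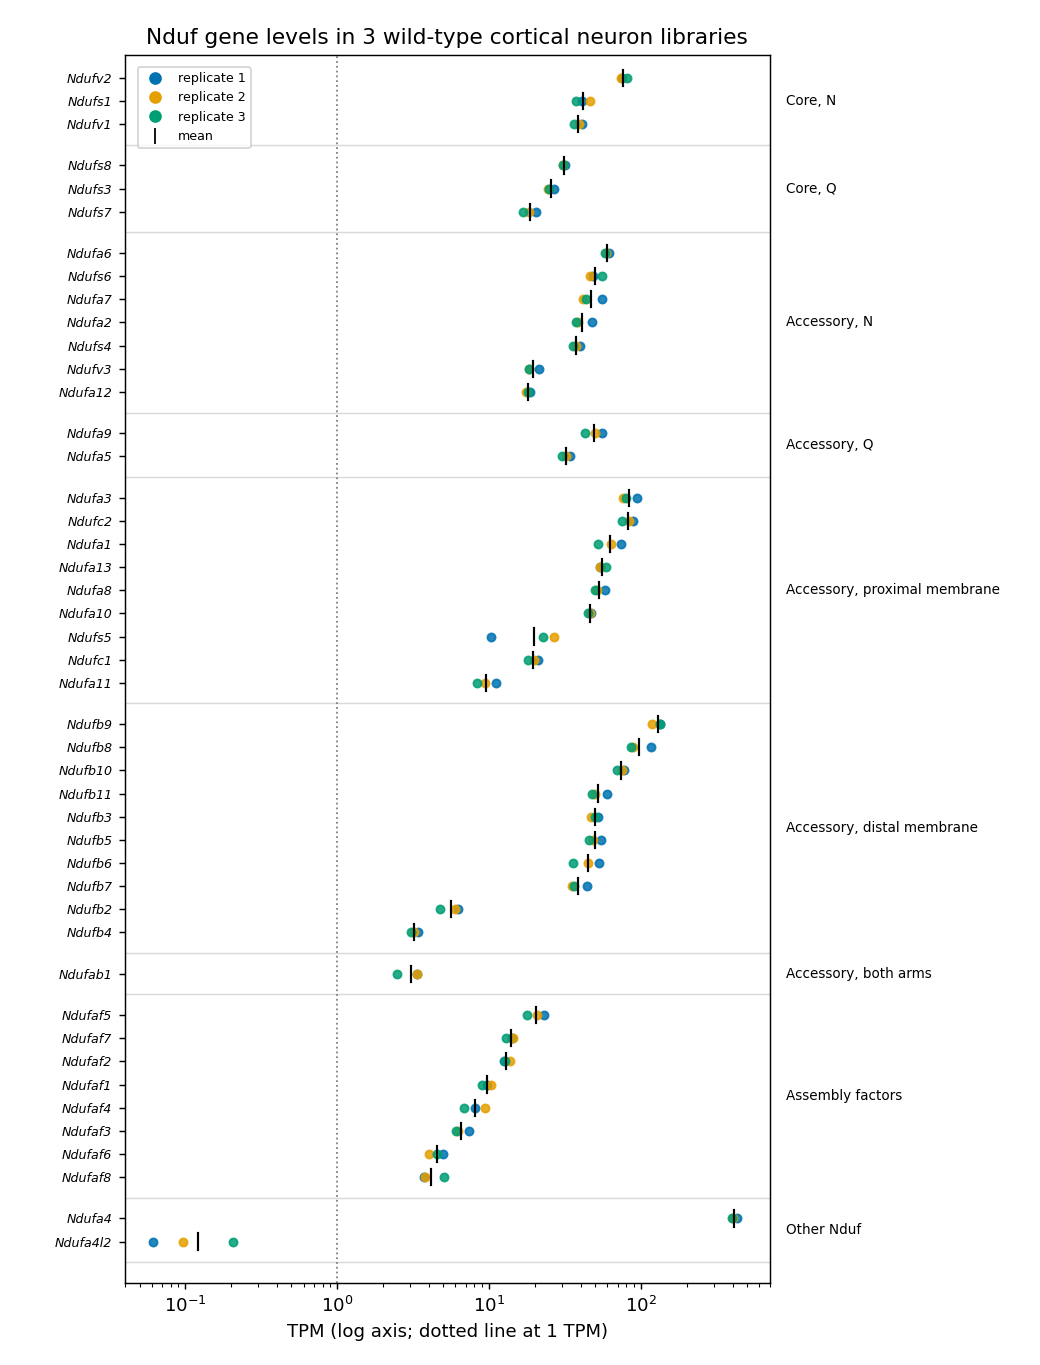
Level of each Nduf gene described, in TPM on a log axis, grouped by place in the enzyme; coloured points are the 3 libraries and the black bar is their mean. Most subunits sit between 30 and 80 TPM and all 8 Ndufaf assembly factors lie below 23 TPM, while Ndufa4 is far above and Ndufa4l2 far below the others.

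The 7 core subunits carry the redox centres. Ndufv2, an iron-sulfur subunit of the N module, was the highest of them at 74.37, 73.48 and 80.17 TPM in replicates 1, 2 and 3. Its partner Ndufv1, which binds FMN and NADH, had 40.89, 38.84 and 36.07 TPM. Ndufs1, the large N-module subunit with several iron-sulfur clusters, had 41.07, 45.91 and 37.08 TPM. Ndufv2 was thus above both other N-module core genes in every library, and Ndufs1 was above Ndufv1 in every library, by less than the spread between libraries in replicates 1 and 3.

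In the Q module, Ndufs8, which carries iron-sulfur clusters towards the quinone site, had 31.48, 30.53 and 30.62 TPM. Ndufs3, a subunit of the arm without a cluster of its own, had 26.86, 24.55 and 24.80 TPM. Ndufs7, which holds the last cluster before ubiquinone, had 20.46, 18.26 and 16.59 TPM. The order Ndufs8, Ndufs3, Ndufs7 held in all 3 libraries with no overlap between neighbours. Of the 50-base stretches of Ndufs3, 56.0% were unique in the genome, and its value is uncertain for that reason.

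The finished enzyme holds 1 copy of each core subunit, and pairs of core genes were compared inside each library, as was 1 pair of paralogs described further on. Ndufv1 stood below Ndufv2 by -0.98 ± 0.15 on the log2(TPM + 0.1) scale, a ratio of 0.508. Ndufs7 minus Ndufs8 was -0.75 ± 0.13 log2 units, a ratio of 0.596. Each difference had 1 sign in 3 of 3 libraries and was larger than its SD. The two-sided exact sign-flip permutation test gave p = 0.25 for each pair (0.25 after Benjamini-Hochberg adjustment over the 4 pairs computed), the smallest value that 3 libraries allow. Adding all coding transcripts of each gene turned the Ndufs7 result to 0.45 log2 units, but that sum counts shared reads repeatedly. The 2 Ndufs7 transcripts had 1031 and 1027 reads in replicate 1, while Ndufs8 has only 1 coding transcript.

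The 29 accessory subunits surround the core and stabilise it. Ndufb9, an LYR-motif protein of the distal membrane arm, was the highest at 133.5, 118.5 and 133.4 TPM. Ndufb8, also of the distal membrane arm, had 115.5, 88.68 and 85.92 TPM. Ndufa3, a small subunit of the proximal membrane arm, had 94.36, 76.35 and 79.72 TPM. Its level and rank depend on the transcript length used, as described further on. Replicate 1 was well above the others for Ndufb8 and Ndufa3, but level with replicate 3 for Ndufb9. Exons of other annotated genes on the same strand covered 28.6% of the Ndufb9 transcript and 19.7% of the Ndufb8 transcript, so part of their reads may be shared.

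At the low end were Ndufb2, Ndufb4 and Ndufab1. Ndufb2, of the distal membrane arm, had 6.204, 5.953 and 4.773 TPM. Ndufb4, of the same arm, had 3.396, 3.192 and 3.043 TPM. Ndufab1, the mitochondrial acyl carrier protein, which is built into both arms and also serves fatty acid synthesis, had 3.334, 3.365 and 2.458 TPM. Ndufb4 and Ndufab1 overlapped, and both were below Ndufb2 in every library. All 3 values carry a limit of their own. Ndufb4 and Ndufab1 had only 59.1% and 54.7% unique 50-base stretches, and Ndufb2 was read over a very long transcript model, described further on.

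Other accessory subunits were closer to the median. Ndufs4, whose loss in mice gives a model of Leigh syndrome, averaged 37.4 ± 2.012 TPM. Ndufa9, which holds a bound NADPH beside the quinone site, averaged 49.25 ± 6.496 TPM. Ndufa13, also known as GRIM-19, averaged 55.25 ± 2.788 TPM. Ndufa10, a membrane-arm subunit with a nucleoside kinase fold, averaged 45.8 ± 1.345 TPM, and the zinc-binding Ndufs6 averaged 49.96 ± 5.024 TPM (n = 3 each). These 5 genes lay within 1.5 times of each other.

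By place in the enzyme, the 19 accessory subunits of the membrane arm had a median of 50.05 ± 3.408 TPM and the 9 of the matrix arm 40.94 ± 5.477 TPM. The difference of medians was 0.30 ± 0.09 log2 units, the same sign in 3 of 3 libraries. The core median was 38.6 ± 2.417 TPM, against 46.99 ± 4.469 TPM for accessory subunits, a difference of -0.28 ± 0.06 log2 units. That direction was lost when coding transcripts were summed, which gave 1.97 log2 units, but the sum counts shared reads repeatedly. Both differences are small beside the 4.12-fold range inside the core and the 42.1-fold range among accessory subunits, although the latter width is uncertain.

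The Ndufaf assembly factors were the lower class, beside the subunits. Their median was 8.872 ± 0.9571 TPM, close to the 8.211 ± 0.1414 TPM of expressed nuclear coding genes. The median of the subunits over that of the assembly factors was 2.31 ± 0.11 log2 units, or 4.97-fold, with 2.42, 2.20 and 2.33 in replicates 1, 2 and 3. The same sign held under every alternative run. Ndufaf5, which hydroxylates an arginine of Ndufs7, was the highest at 22.81, 20.61 and 17.76 TPM. Ndufaf7, an arginine methyltransferase, had 14.12, 14.41 and 12.98 TPM. Ndufaf2, a relative of Ndufa12 that acts late in assembly, had 12.47, 13.76 and 12.64 TPM. Ndufaf5 was above the other two in all libraries, and Ndufaf7 was above Ndufaf2 in each, although their ranges over the libraries overlapped.

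Lowest of this class were Ndufaf3, Ndufaf6 and Ndufaf8. Ndufaf3, which works with Ndufaf4 on the Q module, had 7.361, 6.191 and 6.065 TPM. Ndufaf6 had 4.977, 3.998 and 4.532 TPM. Ndufaf8, which stabilises Ndufaf5 in human cells, had 3.697, 3.761 and 5.017 TPM. Ndufaf8 was thus below its partner Ndufaf5 in every library. It was the lowest of the class in replicates 1 and 2, while Ndufaf6 was the lowest in replicate 3. Ndufaf1, a member of the assembly complex with Ecsit, Tmem126b and Acad9, averaged 9.667 ± 0.6719 TPM and Ndufaf4 8.077 ± 1.245 TPM.

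A median below that of the subunits was shared by assembly factors with other names. All 11 of those with a value were expressed, with a median of 10.15 ± 0.4235 TPM. They ranged from Tmem126a at 28.54 ± 1.182 TPM to Nubpl, which delivers iron-sulfur clusters to complex I, at 1.374 ± 0.1404 TPM. The 3 partners of Ndufaf1 lay near it, with Ecsit at 11.74 ± 1.383 TPM, Tmem126b at 10.66 ± 0.8629 TPM and Acad9 at 8.34 ± 0.4072 TPM.

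Ndufa4 was named as a complex I subunit and is now regarded as part of complex IV. It was by far the highest Nduf gene, at 425.7, 400.0 and 393.9 TPM, above 99.8% of coding genes. Its paralog Ndufa4l2, known as a gene induced by hypoxia, had 3, 4 and 9 reads in replicates 1, 2 and 3. These correspond to 0.061, 0.0964 and 0.205 TPM. The exact Poisson 95% intervals, which cover counting error only, were 0.0126 to 0.178 TPM, 0.0263 to 0.247 TPM and 0.0938 to 0.39 TPM. The 3 intervals overlap, and a difference between libraries was not tested. Ndufa4 minus Ndufa4l2 was 10.9 ± 0.52 log2 units. The size depends on the pseudocount, and was 8.51 with a pseudocount of 1 and 11.75 with one of 0.01.

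Set beside the other respiratory complexes, the complex I subunit median of 44.31 TPM was the lowest. The 4 complex II genes had a median of 67.83 ± 2.621 TPM, between Sdhd at 76.88 ± 8.381 TPM and Sdhc at 21.88 ± 2.601 TPM. Complex III had 101.1 ± 5.663 TPM over 9 genes, complex IV 131.6 ± 4.976 TPM over 10 genes and complex V 97.61 ± 11.97 TPM over 15 genes. Complex I minus complex III was -1.19 ± 0.06 log2 units, complex I minus complex IV -1.57 ± 0.17, and complex I minus complex V -1.14 ± 0.07. The sign was the same in 3 of 3 libraries for each. With genes of at least 90% unique 50-base stretches alone, the difference from complex III was -0.37; the complex III genes Uqcrb, Uqcrh and Uqcr11 fall below that share. With coding transcripts summed, the difference from complex V was -2.13.

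The ranges overlapped widely. Ndufb9, the highest complex I subunit, exceeded the medians of complexes III and V. Complex III ran from Uqcrh at 213.6 ± 21.17 TPM to Uqcrq at 37.82 ± 5.132 TPM. Complex IV ran from Cox4i1 at 321.1 ± 30.29 TPM to Cox7c at 1.628 ± 0.3847 TPM. Complex V ran from Atp5b at 324.7 ± 25.54 TPM to Atp5g2 at 0.8314 ± 0.2717 TPM. Only 72.7% of the 50-base stretches of Cox7c and 52.5% of those of Atp5g2 were unique. Both low values, and the widths of these 2 ranges, are uncertain for that reason. Among the mitochondrial partners of the Nduf genes, mt-Nd1 had 2574 ± 132.1 TPM and mt-Nd6 40.72 ± 1.807 TPM. The gene mt-Nd3, with only 3.33% unique 50-base stretches, was listed at 0.

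**Figure D2:**
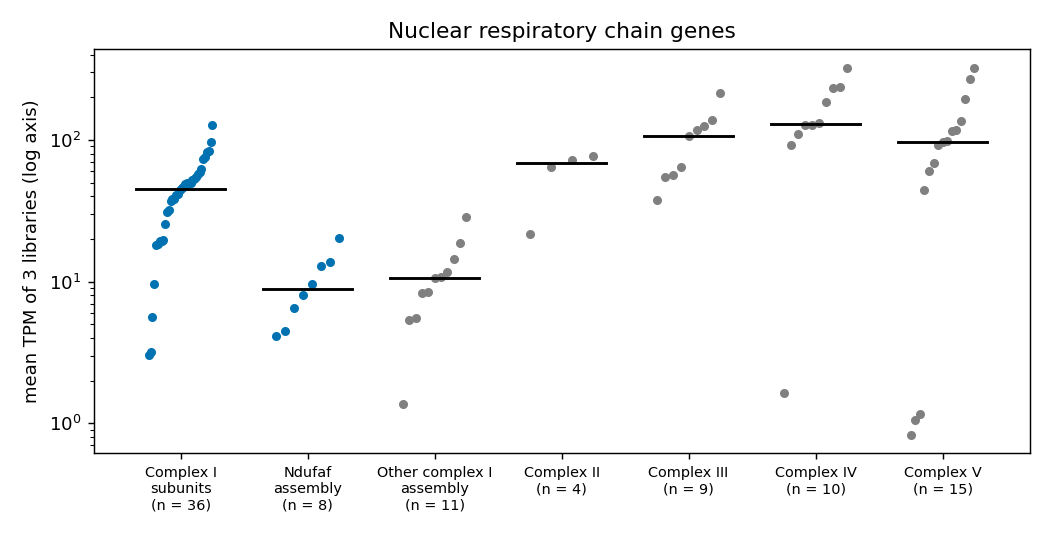
Mean TPM over 3 libraries on a log axis for each gene of 7 lists, with complex I subunits and Ndufaf genes in blue and other lists in grey; the black line is the median of the gene means. The median of the complex I subunits lies below those of complexes II to V, and the medians of both assembly factor lists lie lower still. The ranges overlap, and some genes of complexes IV and V lie below every complex I subunit.

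Across the 3 libraries the subunits moved together. Of the 36 subunits, 30 (83.3%) had their highest value in replicate 1, against 28.2% of 11197 expressed nuclear coding genes. Of all 45 expressed members it was 34 (75.6%). The shift was small: the median subunit was 0.144 log2 units higher in replicate 1 than the mean of the other 2 libraries, against -0.0161 for expressed nuclear coding genes. Both core subunits (5 of 7) and accessory subunits (25 of 29) showed it, whereas 3 of 8 Ndufaf genes did. Replicate 3 was the lowest library for 29 of 45 members, against 40.9% of expressed nuclear coding genes, and the highest for 4 of 45, against 31.4%. Replicate 2 was the highest for 7 of 45 members, against 40.4%. After rescaling to nuclear coding genes, replicate 3 was the lowest for 22 members. It was then the highest for 5, against 40.2% of expressed nuclear coding genes. Replicate 1 stayed the highest for 34 members, against 26.1%. The rescaled share of all genes is given for the highest library only. The count of 22 therefore has no share of all genes beside it, since the 40.9% was taken before rescaling.

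The pattern was not limited to complex I. Replicate 1 was the highest for 7 of 9 complex III genes, 8 of 10 complex IV genes and 10 of 14 expressed complex V genes. Replicate 1 also had the most reads. The neuronal list had medians of 243.3, 251.8 and 203.2 TPM in replicates 1, 2 and 3. The astrocyte list had medians of 54.28, 65.18 and 59.47 TPM, which are the values of Slc1a2. The other astrocyte markers, Slc1a3, Aqp4, Gfap and Aldoc, were each highest in replicate 3, with Slc1a3 at 165.1, 184.9 and 203.4 TPM. The oligodendrocyte lineage list had medians of 11.51, 4.963 and 18.43 TPM, which are the values of Pdgfra. Olig2 had the same order at 15.07, 10.08 and 22.71 TPM, as did Olig1, which varied less, at 35.01, 31.24 and 36.96 TPM. Mbp had 1.285, 1.249 and 1.177 TPM, and Mobp was at or near 0 in all libraries. The part of these differences in the complex I pattern was not tested. The median coefficient of variation of the subunits was 8.66%, against 7.88% for expressed nuclear coding genes.

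**Figure D3:**
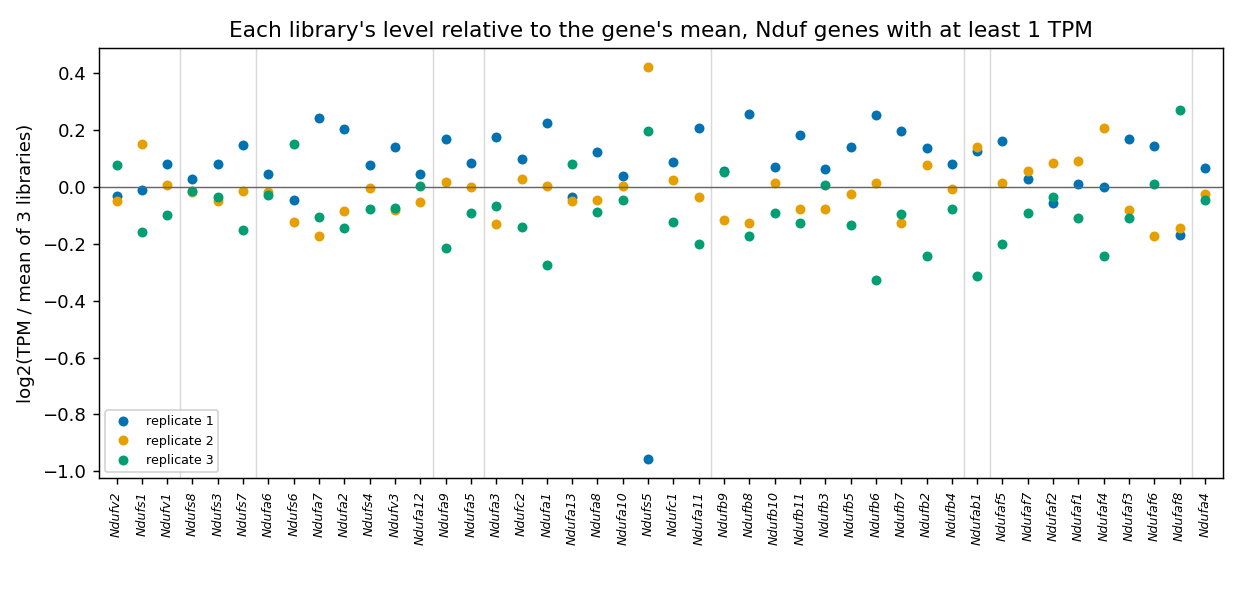
Level of the expressed Nduf genes in each library relative to that gene's mean, in log2 units, with genes ordered by place in the enzyme from core to assembly factors and Ndufa4 last. Replicate 1 is the top point for most genes, and Ndufs5 stands out with replicate 1 far below the others.

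Ndufs5 went the other way. This accessory subunit, which faces the intermembrane space, had 10.21, 26.53 and 22.70 TPM in replicates 1, 2 and 3. It was the only subunit of 36 with its lowest value in replicate 1, below 50% of both other libraries. Among the 4862 nuclear coding genes averaging 10 TPM or more, 2 (0.0411%) were that low in replicate 1, Ndufs5 and Cwc22. Its coefficient of variation of 43.1% was above that of 99.71% of expressed nuclear coding genes. The next members by spread were Ndufb6, a distal membrane subunit with 52.93, 44.82 and 35.44 TPM (19.7%), and Ndufaf8 (17.9%). Ndufb6 shared the common order, with replicate 1 highest and replicate 3 lowest.

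Ndufs5 lies at chr4:123712710-123718202 on the minus strand (GRCm38). A processed copy, annotated as the pseudogene BC002163, lies at chr16:42955631-42955949 on the plus strand, inside an intron of Zbtb20. Of 64 Ndufs5 50-base stretches, 31 also matched there, and 51.6% were unique. The first 120 bases of the coding sequence are shown because reads must be assigned between these 2 loci. Capitals mark the 2 bases that differ. The gene's stretch is chr4:123715960-123716079 on the minus strand, and the copy's is chr16:42955631-42955750 on the plus strand.
Ndufs5: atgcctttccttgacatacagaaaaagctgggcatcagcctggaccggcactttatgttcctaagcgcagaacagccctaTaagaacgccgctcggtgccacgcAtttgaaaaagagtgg
BC002163: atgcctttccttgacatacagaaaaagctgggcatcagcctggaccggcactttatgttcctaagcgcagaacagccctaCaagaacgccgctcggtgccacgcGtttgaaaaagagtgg

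The copy had 853, 3 and 286 reads in replicates 1, 2 and 3, and Ndufs5 had 356, 780 and 705. The library with the fewest Ndufs5 reads was the one with the most reads on the copy, and replicate 2 had the reverse. The copy held 70.6%, 0.383% and 28.9% of the summed reads of both loci. Scaled to a common library total of 1000000 reads on coding transcripts, the sum was 36.1, 26.4 and 34.0. The sum was thus highest in replicate 1 and lowest in replicate 2. Ndufs5 alone was 10.6, 26.3 and 24.2. The sum was formed after the values were seen, and whether reads moved between the loci was not tested.

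**Figure D4:**
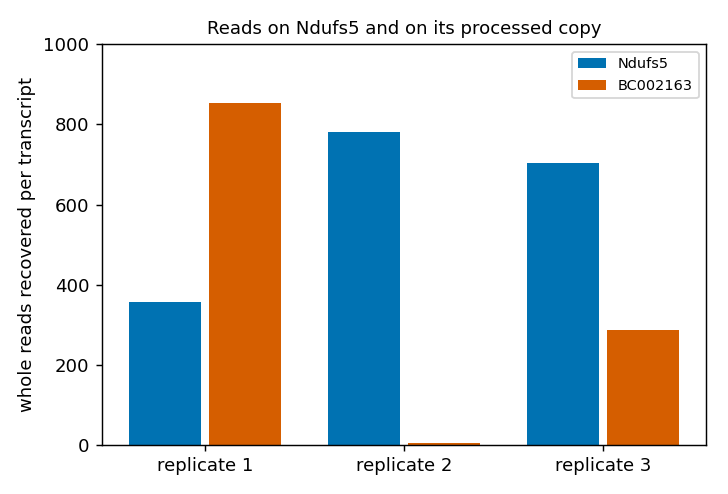
Whole reads recovered for the Ndufs5 transcript (blue) and its processed copy BC002163 (orange) in each library. The copy exceeds Ndufs5 only in replicate 1, with 853 against 356 reads, and has 3 reads in replicate 2.

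Of the 46 members, 29 had 50-base stretches that were all unique, and 10 had less than 90% unique stretches. Ndufa12, a matrix-arm subunit, averaged 18.04 ± 0.6166 TPM with 73.8% unique stretches. Its copy Gm15920, at chr5:130188395-130188796 on the plus strand in an intron of Rabgef1, had 21.11, 18.13 and 20.64 TPM. In TPM these values were as high as those of Ndufa12 itself, at 18.63, 17.40 and 18.08, and unlike BC002163 they were steady. The copy had fewer reads, with 435, 315 and 379 over 402 bases. Ndufa12 had 1060, 835 and 917 reads over 1110 bases. The copies of Ndufab1, Ndufs3 and Ndufb4 (Gm4459, Gm12251 and Ndufb4c) had less than 0.5 TPM in every library. For these 3 genes a 120-base coding stretch was identical in the gene and its copy. Across the 36 subunits the share of unique stretches and the mean level had a Spearman rho of 0.43, a description across genes that share the libraries.

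The transcript model also set the level of some members. Ndufb2 averaged 5.643 ± 0.7645 TPM over a model of 4371 bases, but its transcript of 455 bases had 50.51, 47.18 and 37.96 TPM, 8.01 times as much. That short transcript held 83.5% as many reads as the long one. Ndufc1, of the proximal membrane arm, stood at 19.53 ± 1.449 TPM over 1249 bases and 63.9 ± 3.806 TPM over a transcript of 315 bases. In all, 6 members had a coding transcript at least 2 times above the value used: Ndufb2, Ndufc1, Ndufab1, Ndufa5, Ndufv3 and Ndufaf3. Only 1 coding transcript was in the table for 23 of the 46 members. Among the other 23, Ndufa3 alone had its highest TPM in the transcript used.

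Ndufa11, a membrane-arm subunit, is a related case. Its deposited transcript is 2661 bases long, against 545 bases in the later annotation release. It had 11.07, 9.353 and 8.350 TPM. The same reads over 545 bases would give 54.05, 45.67 and 40.77 TPM, near the subunit median. For Ndufa3 the deposited transcript is the shorter one, with 349 bases against 515 in the later release. Its reads over 515 bases would give 63.94, 51.74 and 54.02 TPM, below Ndufc2 at 82.0 ± 6.842 TPM. Transcript length in the table and mean TPM had a Spearman rho of -0.46 across the 36 subunits, and of -0.21 when each gene took its highest transcript. Coding length had a rho of 0.0049.

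**Figure D5:**
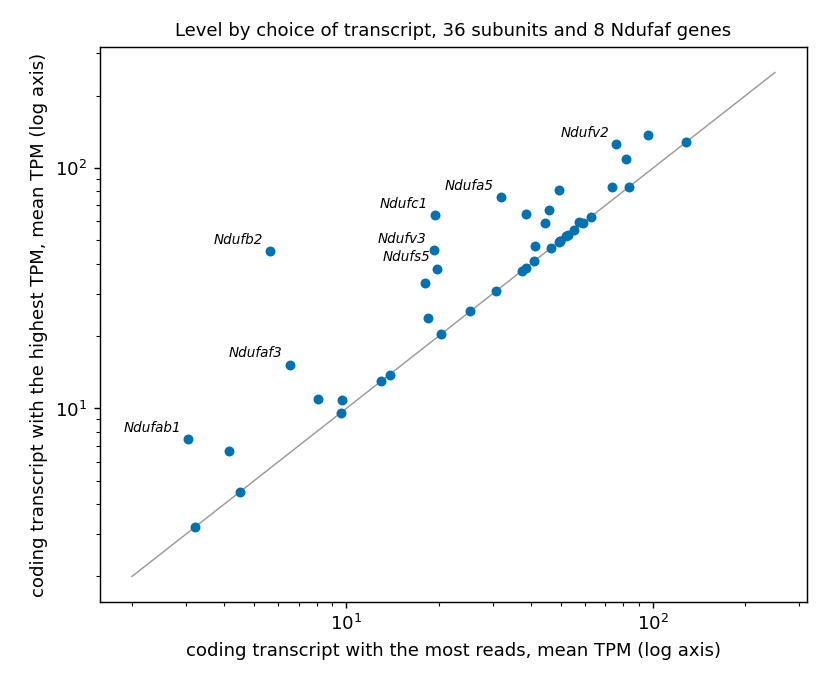
Mean TPM of the coding transcript with the highest TPM against that of the coding transcript with the most reads, both on log axes, for 36 subunits and 8 Ndufaf genes; the grey line marks equal values. Ndufb2 lies farthest above the line, followed by Ndufc1, and genes for which both choices agree lie on it.

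RefSeq promoter windows (GRCm38.p6, 250 bases before to 50 after the start) were found for 40 members, 32 of them subunits. They were searched on both strands for letters of factors known to act on nuclear respiratory genes (YY1, NRF1, ETS and ERR proteins) and for the CCAAT and TATA boxes. The YY1 letters AAGATGGC occurred in 8 of 40 windows, against 3.66% of 13923 windows. All 8 lay on the gene's own strand within the 50 bases after the start, where 1.70% of all windows hold them. They belonged to 7 subunits and Ndufaf8. The YY1 letters contain ATG, the letters of a start codon. Whether these matches sit at the start of the coding sequence was not tested. The 30-base windows are shown because they share both letters and place, with the motif in capitals.
Ndufa3, chr7:3617384-3617413 plus strand: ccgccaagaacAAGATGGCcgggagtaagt
Ndufa9, chr6:126849097-126849126 minus strand: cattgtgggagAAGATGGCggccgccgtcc
Ndufaf8, chr11:120098933-120098962 plus strand: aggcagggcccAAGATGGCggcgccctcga
Ndufb8, chr19:44555393-44555422 minus strand: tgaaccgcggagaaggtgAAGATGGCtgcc
Ndufc1, chr3:51408915-51408944 minus strand: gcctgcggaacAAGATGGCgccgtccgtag
Ndufs4, chr13:114388045-114388074 minus strand: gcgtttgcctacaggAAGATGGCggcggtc
Ndufs6, chr13:73328433-73328462 minus strand: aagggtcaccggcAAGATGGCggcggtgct
Ndufs7, chr10:80249462-80249491 plus strand: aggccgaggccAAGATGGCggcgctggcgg

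The motif began between 11 and 39 bases after the start in these genes. Their levels differed widely, with Ndufb8 at 96.71 ± 16.36 TPM and Ndufaf8 at 4.159 ± 0.7442 TPM. The NRF1 letters, GCGCA followed directly by TGCGC, which read the same on both strands, occurred in 3 of 40 windows, against 1.64% of all windows, in Ndufa11, Ndufaf4 and Ndufaf5.

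The other letters were near or below their share of all windows. CCAAT was found in 14 of 40, against 38.0% of all windows, and TATAAA in 4, against 9.35%. The ETS letters CCGGAAGT were in 1 window, that of Ndufs3, against 6.54%. The ERR letters TCAAGGTCA were in none of the 40 and in 0.244% of all windows. A match describes letters in the window and does not show that a factor binds there.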

How the data were processed

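Total RNA of wild-type control cortical neurons was measured in 3 libraries prepared, per the labels' protocols, by QIAgen column extraction and KAPA library synthesis. The submitters' processing notes name build mm10, the aligner STAR (2.5.3a), the counter featureCounts with Subread (1.4.6), and FastQC (0.11.2). The authors deposited TPM values for 84660 transcripts. How reads matching several places were treated is not given in the sources used here. Transcripts were matched by identifier to GENCODE release M21, and 98.1% matched. TPM times exonic length gave whole reads, within 0.01 of a read, for 98.0% of values, using the ends in the deposited table where these moved. Ndufa4 and Ndufa9 gave no whole reads. Counting tests were not run, since there is 1 group.

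Overlapping transcripts of a gene share reads: in replicate 1, 2 transcripts of Ndufv2 had 5870 and 5843 reads. The sum over transcripts is therefore an alternative only. Uniqueness was measured on the mm10 genome by searching 50-base stretches taken every 10 bases. Differences are of log2(TPM + 0.1) inside each library, a scale that understates differences of low genes. Differences of list medians were given no test. Named genes were core subunits, the 3 highest and lowest accessory and Ndufaf genes, Ndufab1, Ndufa4, Ndufa4l2 and the 3 expressed members with the largest spread. For other lists the highest and lowest were named, and further genes were picked with their values in view. Members and lists were chosen with earlier results of these data known. A result that the rule names is not reported here. Ndufb1 had no coding value and is not a member. On simulated data over 74454 transcripts with unmoved ends, 100% of reads were recovered, using the lengths they were simulated with. A planted difference of 2 log2 units between lists of 200 genes came out as 1.99. The simulation left out transcripts with moved ends, which 15 of the 46 members had, and so does not check them. Python 3.11.15, numpy 2.4.6, pandas 2.3.3, scipy 1.17.1 and matplotlib 3.10.9 were used.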

Additional observations from a re-analysis of the deposited data

How the results depend on the processing

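The alternatives were pseudocounts of 1 and 0.01, the sum over coding transcripts, the transcript with the highest TPM, genes with at least 90% unique 50-base stretches, a minimum of 1 or 5 TPM, rescaling to nuclear coding genes and leaving out each replicate. The lengths of release M21 and the count of members highest in replicate 1 were added after seeing the data. Among the differences of medians, 11 values moved by more than the replicate spread and 1 reversed, and no count moved by 1.5 times. The pairs could not cross a threshold with 3 libraries; 1 of them reversed, and others moved beyond their SD. Ndufa4 minus Ndufa4l2 was 8.51 and 11.75 with pseudocounts of 1 and 0.01. The difference of subunits and Ndufaf genes was 2.20 with a pseudocount of 1, 1.82 for the sum and 2.08 for the highest transcript. Core minus accessory subunits reversed to 1.97 for the sum and was -0.14 for the highest transcript. Membrane minus matrix arm was 0.59 for the sum. Complex I minus complex III was -0.37 among unique genes. Complex I minus complex IV was -1.82 for the sum, -1.84 for the highest transcript and -1.80 with M21 lengths. Complex I minus complex V was -2.13 for the sum and -1.41 among unique genes. Ndufs7 minus Ndufs8 reversed to 0.45 for the sum and was -0.38 for the highest transcript. The sum counts shared reads repeatedly; the other causes were not tested.

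Without 1 replicate, the differences ranged as follows, in log2 units: subunits minus Ndufaf genes 2.26 to 2.37, core minus accessory -0.30 to -0.25, membrane minus matrix arm 0.26 to 0.35, complex I minus complex III -1.21 to -1.16, minus complex IV -1.62 to -1.47, and minus complex V -1.17 to -1.10. Ndufv1 minus Ndufv2 ranged from -1.03 to -0.89, Ndufs7 minus Ndufs8 from -0.81 to -0.68, and Ndufa4 minus Ndufa4l2 from 10.66 to 11.18. The count of expressed members was 45 each time. No paired analysis was possible because the 3 libraries form 1 group. Among the members, depth limits Ndufa4l2 most, with 3 to 9 reads a library.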
